A study of Homo sapiens with 6 samples.

Results

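The proteasome is the multi-subunit protease that degrades ubiquitin-tagged proteins in the cytosol and nucleus. Its core particle stacks rings of alpha and beta subunits, and 3 of the beta subunits carry the proteolytic sites. The regulatory particle caps the core: a base with a ring of ATPases unfolds substrates and a lid removes their ubiquitin chains. Cancer cells depend on this protease to clear damaged proteins and short-lived regulators, and dedicated chaperones, alternative caps and an inhibitor adjust its assembly and activity.

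Genes of the proteasome were taken as every row of the count table with a symbol made of PSM, one of the letters A to G and a number, leaving out PSMB8 and PSMB9. The rule found 46 of 26490 gene symbols: 15 of the core particle, the testis-restricted PSMA8 among them, 17 of the regulatory particle and 14 others. These 14 are chaperones, activators, an inhibitor, the inducible subunit PSMB10 and the thymus-restricted subunit PSMB11. No measured value entered the rule. The cells were SW403, an established human colon adenocarcinoma line, kept in DMEM with 10% serum for 24 h and given no treatment. There were 3 control libraries (genotype WT, columns marked NS) and 3 IRS2 knockdown libraries (genotype IRS2_knockdown, columns marked KO) of total RNA. How IRS2 was lowered, and whether the 3 cultures of a group are 1 clone or line, is not given in the sources used here, so the p-values cover the spread between these cultures only.

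Control libraries held 11816973 to 12585013 counts and knockdown libraries 14329348 to 18114656, so every knockdown library was the deeper. IRS2, the insulin receptor substrate that was targeted, stood at 32.1, 34.6 and 31.8 CPM in control and at 13.1, 12.4 and 12.1 CPM in knockdown. CPM are counts scaled to library size, here after adjustment with edgeR's TMM factors. Of 10 colon epithelial markers, KRT8, KRT18, EPCAM, CDX2 and VIL1 were expressed highly enough to be tested, KRT20 and CDX1 had no count in any library, and CDH1, LGALS4 and CDH17 had means of at most 3.17 counts. Markers of leukocytes, endothelium and fibroblasts summed to 9.82 to 26.1 CPM in control and 7.34 to 9.07 CPM in knockdown, with COL1A1 called lower (means 8.82 and 4.0 CPM). Among the colon markers CDX2 was called higher (means 77.0 and 84.6 CPM) and EPCAM lower (means 39.8 and 34.3 CPM). The part of depth and of these markers in the results was not tested, except that thinning every library to the smallest left 8 proteasome genes called higher and 5 lower, against 10 and 6 below.

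Proteasome transcripts as a whole moved little when IRS2 was lowered. Of the 46 genes, 44 passed the low-count filter, with means of 316.5 to 5916 counts. PSMA8, the testis-restricted alpha subunit, had 2, 0 and 1 counts in control and none in knockdown. PSMB11, the thymus-restricted beta subunit, had none in any library. Among the 44, 16 had an edgeR adjusted p under 0.05, which is 36.4%, against 38.5% of all 13832 tested genes. In this fit, a share this near the background does not set the proteasome genes apart. That background held genes down to a mean of 6 counts, and no share was taken over genes of like level. By direction, 10 of the 44 (22.7%) were higher in knockdown, against a background of 19.3%, and 6 (13.6%) were lower, against 19.2%. With DESeq2's Wald test 17.8% of 45 members, PSMA8 now among them, were higher, against 9.67% of the 19876 genes in that fit. Lower were 6.67%, against 8.24%. No low-count filter was set before that fit, so its background held genes down to a mean of 0.167 counts. Genes without an adjusted p counted there as not called, so these shares are not comparable with those of edgeR. With a trend in length and GC content removed, as below, 36.4% of the 44 were higher, against 20.7%, and 11.4% lower, against 20.4%. These differences were not tested. With library size alone in place of TMM factors the split was 8 higher and 8 lower. The lower calls numbered 3 without control replicate 2 and 3 with DESeq2's Wald test. The median log2 fold change was 0.01 for the 44 genes and -0.0039 for all tested genes. The number of members changed at least 2-fold was 0, and the changes past the threshold ran from 6.44% to 26.0%. Libraries of the 2 groups did not overlap for 22 of the 44 genes, against 47.6% of all tested genes.

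**Figure D1:**
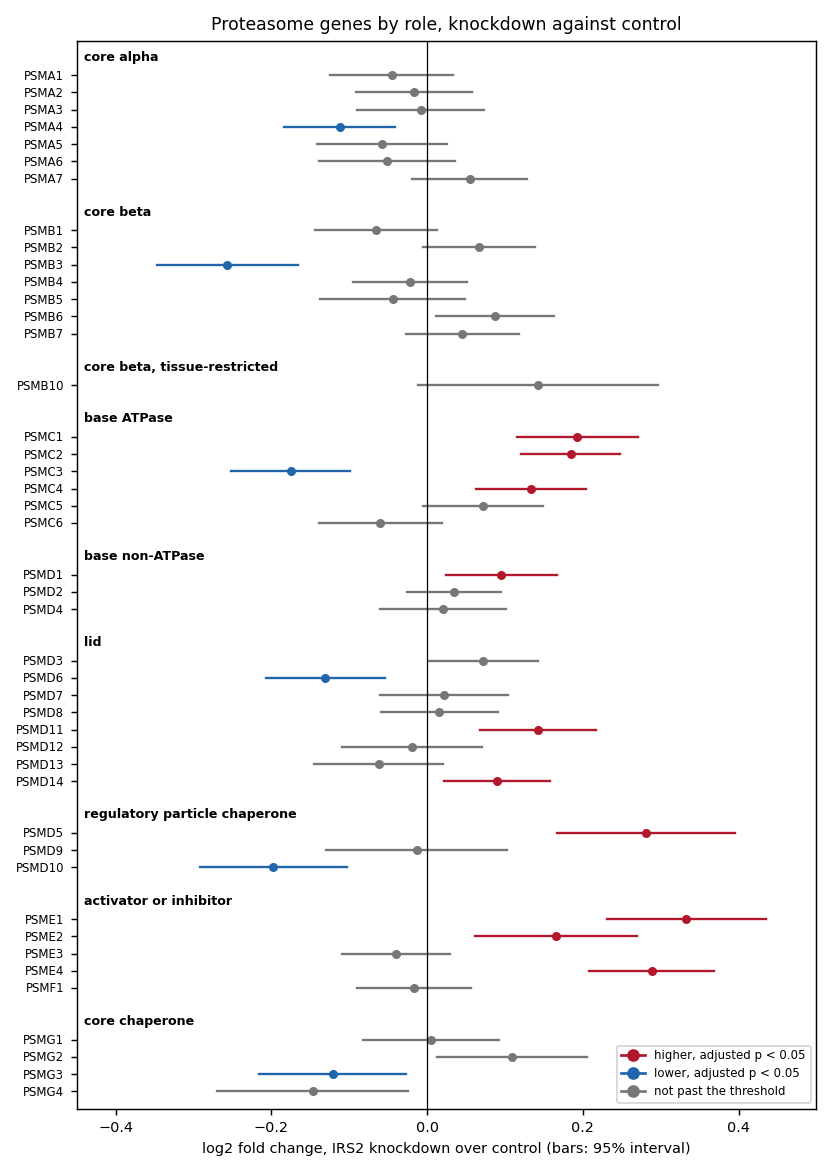
Log2 fold change of IRS2 knockdown over control for the 44 tested proteasome genes, grouped by role, from edgeR's fit over all genes; points are estimates and bars 95% intervals. No core subunit is called higher, while the base ATPases hold 3 called higher and 1 called lower, and the largest rises are PSME1, PSME4 and PSMD5. Of all tested genes 19.3% are called higher and 19.2% lower.

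Calls differed between the particles in small numbers, and the difference was not tested. Of the 14 tested core subunits 0 were higher and 2 (14.3%) lower, and the median log2 fold change was -0.03. Of the 17 regulatory subunits 6 (35.3%) were higher and 2 (11.8%) lower, and the median was 0.03. For all tested genes the shares were 19.3% higher and 19.2% lower. With library size alone the regulatory particle had 4 higher and 2 lower and a median of 0.00, and the core 0 higher and 3 lower with a median of -0.06. In summed CPM the core stood at 2457, 2423 and 2383 in control and 2329, 2371 and 2468 in knockdown. These sums overlapped between the groups, and the highest of all was knockdown replicate 3. The regulatory particle summed to 3224, 3236 and 3219.7 CPM in control and 3299.7, 3314 and 3432 CPM in knockdown, with every knockdown library above every control. Per library, the core-to-regulatory ratio was 0.762, 0.749 and 0.740 in control and 0.706, 0.715 and 0.719 in knockdown. Both groups of ratios were apart, with means of 0.750 ± 0.0109 and 0.714 ± 0.00686 (SD, n = 3 each). Because a sum of CPM weights long transcripts more, the ratio was also taken per kilobase of transcript, where it was 1.31 ± 0.0193 in control and 1.26 ± 0.0153 in knockdown (SD, n = 3 each). Control libraries ran from 1.29 to 1.33 and knockdown libraries from 1.24 to 1.27 on that scale, without overlap. That scale only reweights the same counts, so it cannot remove a length trend that differs between libraries. No ratio was taken with such a trend removed. No test was made of these sums, since the genes were grouped with earlier results known.

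**Figure D2:**
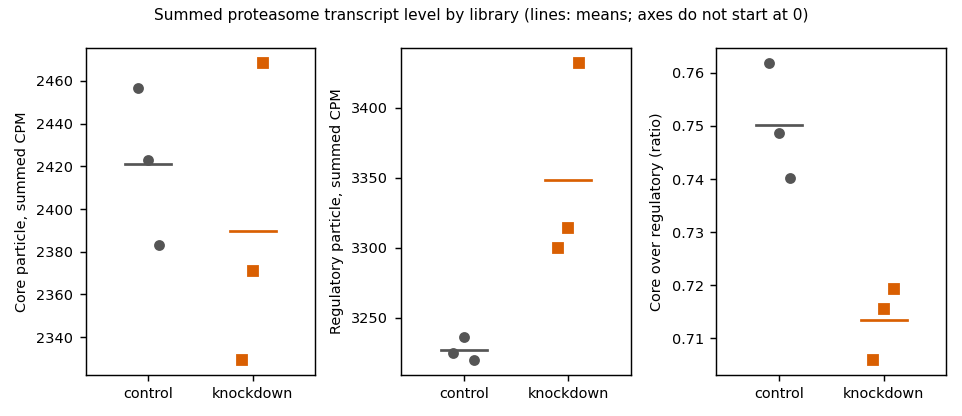
Summed CPM of the core subunits (left), of the 17 regulatory subunits (middle) and their ratio (right), 1 point per library and a line at each group mean. The core sums overlap between groups, and the ratio is 0.740 to 0.762 in control and 0.706 to 0.719 in knockdown.

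Over all genes, fold change moved with transcript length, which differs between the particles. Tested core subunits had a median transcript length of 1003.5 nt and regulatory subunits of 1754 nt. Over genes averaging 200 counts or more, the median log2 fold change was -0.07 for the 519 genes of up to 1000 nt and 0.06 for the 3686 genes over 4000 nt. Proteasome genes of up to 1000 nt (11, of which 7 core) had a median of 0.05. It was -0.04 for the 10 of up to 1500 nt and 0.02 for the 9 of up to 2500 nt. For the 8 of up to 4000 nt it was 0.06, and for the 6 longer ones 0.02. Across the 44 proteasome genes the correlation of log2 fold change with log2 length was 0.24 (Pearson) and with length 0.20 (Spearman). For the 8839 genes averaging 200 counts or more these were 0.19 and 0.24. Genes are not independent replicates, and they share the 6 libraries. When the trend with length and GC content was removed in each library, the core median became 0.03 and the regulatory median 0.06. In that fit 16 proteasome genes (36.4%) were called higher, against 20.7% of all tested genes, and 5 (11.4%) lower, against 20.4%. The core then had 3 genes higher and 2 lower, and the regulatory particle 7 higher and 2 lower. The core subunits called higher only with the trend removed were PSMA7, PSMB6 and PSMB7. The trend rests on 1 canonical transcript per gene, which may not be the form these cells express.

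**Figure D3:**
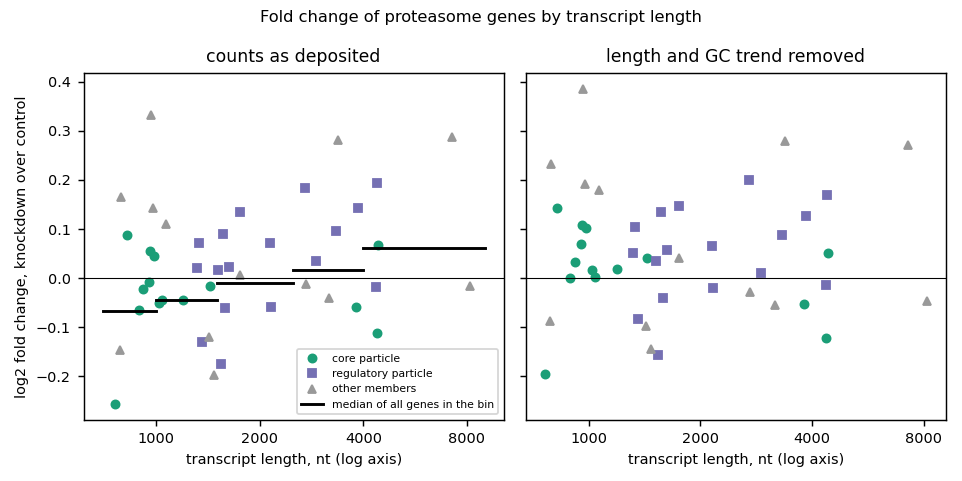
Log2 fold change against transcript length (log axis) for the 44 tested proteasome genes, from the counts as deposited (left) and with the length and GC trend removed in each library (right). Black lines on the left are medians, by length bin, of genes averaging 200 counts or more, from -0.07 for the shortest to 0.06 for the longest; most core subunits lie near 1000 nt and shift upwards on the right.

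Alpha subunits form the outer rings of the core and its gate. Of the 7 tested, 6 did not pass the threshold and 1, PSMA4, fell. PSMA4 stood at 206, 212 and 212 CPM in control and at 187, 198 and 198 CPM in knockdown. All knockdown values lay below all control values, and the log2 fold change was -0.11 ± 0.03 (SE; edgeR adjusted p 0.0136). This call was lost with DESeq2's Wald test (adjusted p 0.0556) and without control replicate 2 (edgeR adjusted p 0.0733) or knockdown replicate 1 (edgeR adjusted p 0.0855). PSMA7 had the highest level per length of any core subunit, at 393 ± 9.63 CPM per kilobase in control and 408 ± 19.7 in knockdown (SD, n = 3 each). PSMA5, with an annotated transcript of 3815 nt, had the lowest alpha level, at 39.1 ± 1.16 and 37.5 ± 1.75 CPM per kilobase (SD, n = 3 each). PSMA1, PSMA2, PSMA3, PSMA5, PSMA6 and PSMA7 had log2 fold changes from -0.06 to 0.05. Their 95% intervals lay between -9.35% and 9.30%.

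Among the beta subunits the 3 proteolytic ones did not pass the threshold. PSMB5, which carries the chymotrypsin-like activity that bortezomib inhibits, stood at 147, 139 and 131 CPM in control and 128, 140.0 and 137 CPM in knockdown. Both groups overlapped (log2 fold change -0.04 ± 0.04 SE, edgeR adjusted p 0.468, 95% interval of the change -9.07% to 3.41%). PSMB6, of the caspase-like activity, stood at 131, 129.9 and 126 CPM in control and 135, 136 and 141 CPM in knockdown. Every knockdown value was above every control value, but the difference missed the threshold (log2 fold change 0.09 ± 0.04 SE, edgeR adjusted p 0.0649). PSMB7, of the trypsin-like activity, stood at 159, 158 and 156 CPM in control and 159, 162 and 167 CPM in knockdown. One knockdown library lay within the control range (log2 fold change 0.05 ± 0.03 SE, edgeR adjusted p 0.328). With the length and GC trend removed, the log2 fold changes were 0.00 for PSMB5 (edgeR adjusted p 0.971), 0.14 for PSMB6 (edgeR adjusted p 0.000573) and 0.10 for PSMB7 (edgeR adjusted p 0.00587).

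The single core beta subunit that changed was PSMB3, a structural subunit without a proteolytic site, on chromosome 17 (GRCh37, 36908994 to 36920478, 6 exons in the canonical transcript). PSMB3 stood at 117, 109.7 and 114 CPM in control and at 95.4, 90.2 and 99.2 CPM in knockdown. The groups were well apart. It fell by 16.3% (95% interval -21.4% to -10.9%; log2 fold change -0.26 ± 0.04 SE, edgeR adjusted p 0.000105), the largest fall among the proteasome genes, and was past the threshold in all 18 alternative fits. PSMB1, PSMB2 and PSMB4 had log2 fold changes of -0.07, 0.07 and -0.02. Beta levels per length ran from 38.8 CPM per kilobase for PSMB2, whose annotated transcript has 4426 nt, to 240.2 for PSMB4 in control. Over the 14 core subunits, which enter the particle in equal number, levels per length spread 10.1-fold in control and 10.9-fold in knockdown. The low end holds genes with long annotated transcripts (PSMB2, PSMA5 and PSMA4, the last of 4378 nt), and a shorter expressed form would raise their values.

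PSMB10 encodes the inducible subunit that replaces PSMB7 in immunoproteasomes. It stood at 20.6, 20.8 and 20.9 CPM in control and at 20.7, 23.8 and 24.0 CPM in knockdown. Its groups overlapped through knockdown replicate 1 (log2 fold change 0.14 ± 0.07 SE, edgeR adjusted p 0.140), and without that library the gene passed (log2 fold change 0.20, edgeR adjusted p 0.0387). The other immunoproteasome subunits, left out by the rule, both rose. PSMB8 went from 25.1, 25.4 and 23.1 to 30.3, 31.8 and 32.0 CPM (log2 fold change 0.36 ± 0.06 SE, edgeR adjusted p 0.000170). PSMB9 went from 5.19, 5.55 and 5.51 to 7.17, 6.69 and 7.46 CPM (log2 fold change 0.39 ± 0.13 SE, edgeR adjusted p 0.0224). PSMB9 lost its call in 5 of 18 alternative fits, among them those without control replicate 1 (edgeR adjusted p 0.0758), knockdown replicate 1 (0.0517) or knockdown replicate 3 (0.0691).

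Base ATPases form the hexameric ring that unfolds substrates, and 4 of the 6 changed, 3 higher and 1 lower. Of all tested genes 38.5% were called, and the share among these 6 was not tested against it. PSMC1 (Rpt2) stood at 135, 136 and 130.2 CPM in control and at 147, 154 and 157 CPM in knockdown. PSMC2 (Rpt1) stood at 306, 308 and 304 CPM in control and at 341, 345 and 357 CPM in knockdown. Neither gene had overlapping groups, and the log2 fold changes were 0.19 ± 0.04 for PSMC1 (SE; edgeR adjusted p 0.000388) and 0.18 ± 0.03 for PSMC2 (SE; edgeR adjusted p 8.44e-05). PSMC4 (Rpt3) went from 182, 182 and 174 to 193, 198 and 199 CPM (log2 fold change 0.13 ± 0.03 SE, edgeR adjusted p 0.00381). PSMC3 (Rpt5) went the other way, from 165, 166 and 157 CPM to 139, 145 and 147 CPM. Its groups were apart as well, and it fell by 11.4% (95% interval -16.0% to -6.60%; edgeR adjusted p 0.000815). These 4 were past the threshold in the same direction in all 18 alternative fits. PSMC5 (Rpt6) and PSMC6 (Rpt4) did not pass, with log2 fold changes of 0.07 ± 0.04 and -0.06 ± 0.04 (SE; edgeR adjusted p 0.136 and 0.226), and PSMC5 passed with the length and GC trend removed (0.10, edgeR adjusted p 0.00886).

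Some of these genes share exonic sequence with a neighbour, and how such reads were assigned is not given in the sources used here. PSMC1 (GRCh37, chromosome 14, 90722871 to 90741773) overlaps exons of NRDE2 on the opposite strand over 4667 nt. NRDE2 had a mean of 469.7 counts and a log2 fold change of -0.11 (edgeR adjusted p 0.178), against a mean of 2081 counts for PSMC1. PSMC2 (chromosome 7, 102969017 to 103010793) shares 112 nt with PMPCB on the same strand, and PMPCB rose (log2 fold change 0.14, edgeR adjusted p 0.00178). In all, 13 of the 46 genes overlap exons of another counted gene on the opposite strand, and their values are uncertain to that extent. For 17 of the 46, GENCODE lists pseudogenes under their symbol, 44 in all with 13 for PSMC1, and 0 of these have a row of their own in the count table.

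The non-ATPase base subunits act as the scaffold and as ubiquitin receptors. PSMD1 (Rpn2) stood at 214, 207 and 223 CPM in control and at 233, 227 and 228 CPM in knockdown. Its groups were apart by a narrow gap, and the call (log2 fold change 0.10 ± 0.03 SE, edgeR adjusted p 0.0336) held in 8 of 18 alternative fits. It was lost with upper-quartile factors or library size alone, and without control replicate 1 or 2 or knockdown replicate 1 or 2 (edgeR adjusted p 0.0673 to 0.165 over these 4). PSMD2 (Rpn1), at 407, 403 and 408 CPM in control and 408, 417 and 421 CPM in knockdown, did not pass (edgeR adjusted p 0.379, 95% interval of the change -1.80% to 6.77%). PSMD4 (Rpn10), a ubiquitin receptor, had a log2 fold change of 0.02 ± 0.04 (SE; edgeR adjusted p 0.719).

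In the lid, 2 of 8 subunits rose, 1 fell and 5 did not pass. The 37.5% called is near the 38.5% of all tested genes. PSMD11 (Rpn6), which holds the lid against the core, stood at 234, 236 and 237 CPM in control and at 255, 251 and 274 CPM in knockdown. Control values were tightly grouped and all knockdown values were above them (log2 fold change 0.14 ± 0.04 SE, edgeR adjusted p 0.00343), and the call held in all 18 alternative fits. PSMD14 (Rpn11), the deubiquitinase of the lid, stood at 174, 172 and 171 CPM in control and at 182, 182 and 186 CPM in knockdown. The groups did not overlap, yet this call (log2 fold change 0.09 ± 0.03 SE, edgeR adjusted p 0.0351) held in only 6 of 18 alternative fits and was lost without any one of the 6 libraries (edgeR adjusted p 0.0525 to 0.0933). PSMD6 (Rpn7) went from 129, 136 and 133 to 122, 120.1 and 122 CPM. It fell by 8.66% (edgeR adjusted p 0.00769) and lost its call with DESeq2's Wald test (adjusted p 0.0540) and without control replicate 2 (edgeR adjusted p 0.0631). The length and GC correction shrank its log2 fold change from -0.13 to -0.08 (edgeR adjusted p 0.0479), and with the replicate block added the call was lost (edgeR adjusted p 0.0651). PSMD3, PSMD7, PSMD8, PSMD12 and PSMD13 had log2 fold changes from -0.06 to 0.07.

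Each of 3 assembly chaperones of the base holds a pair of ATPases before the ring closes, and the 3 differed. PSMD5 (S5b), on chromosome 9 (GRCh37, 123577774 to 123605229), stood at 52.3, 58.2 and 57.2 CPM in control and at 63.0, 71.4 and 68.9 CPM in knockdown. Every knockdown library was above every control, and PSMD5 rose by 21.5% (95% interval 12.3% to 31.6%; log2 fold change 0.28 ± 0.05 SE, edgeR adjusted p 0.000418). PSMD10 (gankyrin), an oncoprotein in liver cancer, stood at 79.6, 86.0 and 85.7 CPM in control and at 70.7, 75.2 and 73.0 CPM in knockdown. All knockdown values were lower, and PSMD10 fell by 12.8% (95% interval -18.3% to -6.92%; edgeR adjusted p 0.00171). PSMD9 (p27) had overlapping groups, at 51.3, 49.0 and 50.1 CPM in control and 49.0, 46.4 and 53.5 CPM in knockdown (edgeR adjusted p 0.878).

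Set beside their chaperones, the ATPases gave the following picture, a grouping made after the values were seen and not tested. The partners of PSMD5, which are PSMC1 and PSMC2 with the scaffold PSMD2, held 2 genes called higher and 0 lower. PSMD10 fell while, of its partners PSMC4 and PSMC5, 1 was called higher. PSMD9 did not pass, and of its partners PSMC3 and PSMC6, 1 was called lower.

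**Figure D4:**
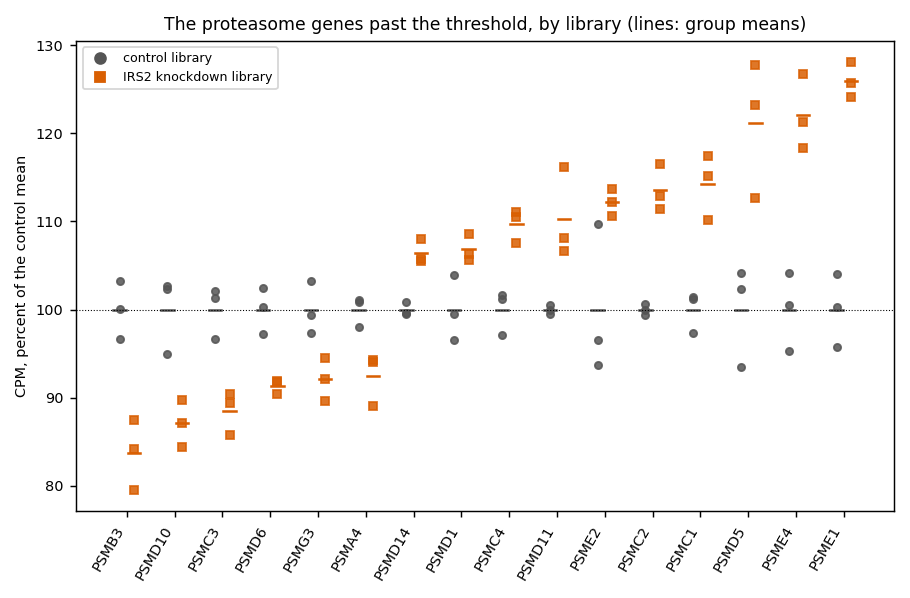
CPM of the 16 proteasome genes past the threshold in each library, as a percent of that gene's control mean (dotted line at 100); circles are control libraries, squares knockdown libraries and short lines group means. Control and knockdown libraries separate for all 16 genes, with PSME2 closest to overlap through control replicate 1. The genes were picked by p-values from these same libraries, so their separation adds no support.

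Alternative caps held the 2 largest rises. PSME1 and PSME2 encode the PA28 alpha and beta subunits, the interferon-inducible cap that favours release of peptides for antigen presentation, and lie next to each other on chromosome 14 (GRCh37, 24605372 to 24608176 and 24612571 to 24616779). PSME1 stood at 48.6, 46.8 and 44.7 CPM in control and at 58.7, 58.0 and 59.8 CPM in knockdown. The groups were far apart relative to their spread, and PSME1 rose by 26.0% (95% interval 17.4% to 35.2%; log2 fold change 0.33 ± 0.05 SE, edgeR adjusted p 2.20e-05). PSME2 stood at 96.7, 82.6 and 85.0 CPM in control and at 97.4, 100.2 and 98.9 CPM in knockdown. Control replicate 1 almost reached the knockdown values, and the call (log2 fold change 0.17 ± 0.05 SE, edgeR adjusted p 0.0124) was lost without control replicate 2 (edgeR adjusted p 0.0928), control replicate 3 (0.0523) or knockdown replicate 2 (0.0514). PSME4 encodes PA200, a nuclear cap linked to histone turnover, and lies on chromosome 2 (GRCh37, 54091206 to 54198130, 47 exons). It stood at 169, 185 and 179 CPM in control and at 215, 225 and 210.1 CPM in knockdown. Its groups were also far apart, and PSME4 rose by 22.1% (95% interval 15.5% to 29.1%; log2 fold change 0.29 ± 0.04 SE, edgeR adjusted p 7.11e-06), the smallest p of the proteasome genes. PSME1 and PSME4 were past the threshold in all 18 alternative fits. PSME3, the nuclear PA28 gamma, and PSMF1, the inhibitor PI31, did not pass (log2 fold changes -0.04 ± 0.03 and -0.02 ± 0.04 SE, edgeR adjusted p 0.373 and 0.744).

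Chaperones of the core build the alpha ring in pairs, PSMG1 with PSMG2 and PSMG3 with PSMG4. PSMG3 went from 71.2, 68.5 and 67.1 CPM in control to 65.1, 63.4 and 61.7 CPM in knockdown. Its groups were apart, but the call (log2 fold change -0.12 ± 0.05 SE, edgeR adjusted p 0.0401) held in 7 of 18 alternative fits and was lost without control replicate 1 or 2 or knockdown replicate 2 or 3 (edgeR adjusted p 0.0950 to 0.140). Its partner PSMG4 stood at 34.5, 37.9 and 34.4 CPM in control and at 32.5, 31.7 and 32.4 CPM in knockdown. PSMG4 missed the threshold (log2 fold change -0.15 ± 0.06 SE, edgeR adjusted p 0.0542). PSMG2 had higher values in all knockdown libraries by a narrow gap, without passing (0.11 ± 0.05 SE, edgeR adjusted p 0.0673), and PSMG1 was nearly flat (0.01 ± 0.04 SE, edgeR adjusted p 0.936).

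Promoter sequence was examined because proteasome genes are known targets of NFE2L1, which binds antioxidant response elements. RefSeq windows of 300 bases, 250 before to 50 after each start (GRCh38.p14), were found for 40 of the 46 genes, and not for PSMA7, PSMB1, PSMB6, PSMB7, PSMD4 and PSMG3. The element core TGACNNNGC, searched on both strands, was in 14 of 48 windows of proteasome genes (29.2%) and in 13.3% of all 35114 windows. By call, it was found for 6 of 10 genes that rose, 2 of 5 that fell and 6 of 23 that did not pass. The looser spelling TGANNNNGC, which every such match also fits, was in 60.4% of the proteasome windows and 41.8% of all. The letters CCAAT, on either strand, were found for 5 of 5 genes that fell, 2 of 10 that rose and 11 of 23 that did not pass, and in 34.6% of all windows. These motifs were chosen after the values were seen, and a match is a description of sequence only. The 6 matches before the start in genes past the threshold are shown with 20 bases on each side, in the direction of the gene and with the match in capitals, which reads TGACNNNGC on the other strand for PSME4. The first 4 genes rose and the last 2 fell.
PSME4, chr2:53970999-53971047, minus strand: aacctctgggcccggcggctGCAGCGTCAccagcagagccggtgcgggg
PSMD5, chr9:120843028-120843076, minus strand: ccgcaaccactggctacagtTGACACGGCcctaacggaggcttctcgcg
PSME1, chr14:24136088-24136136, plus strand: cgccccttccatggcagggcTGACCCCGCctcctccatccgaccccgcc
PSME2, chr14:24146757-24146805, minus strand: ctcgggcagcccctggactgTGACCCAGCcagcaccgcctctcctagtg
PSMA4, chr15:78540640-78540688, plus strand: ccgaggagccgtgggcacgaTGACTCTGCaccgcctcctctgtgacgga
PSMB3, chr17:38752617-38752665, plus strand: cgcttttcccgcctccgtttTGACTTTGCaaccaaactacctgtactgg

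Other genes of the ubiquitin-proteasome pathway were read from a list of 51, of which 50 were tested. Of these, 13 were higher, 5 lower and 32 did not pass, and the median log2 fold change was 0.04. The 36% called is near the 38.5% of all tested genes, with 26% higher and 10% lower against 19.3% and 19.2%, and this difference was not tested. The largest rise was SQSTM1, the autophagy and ubiquitin receptor p62, at 389.6, 381 and 383 CPM in control and 556, 557 and 568 CPM in knockdown. Its groups were far apart (log2 fold change 0.54 ± 0.03 SE, edgeR adjusted p 3.98e-11). UBE3C, a ubiquitin ligase that works on the proteasome, went from 178, 198 and 189.8 to 251, 255 and 250.1 CPM (log2 fold change 0.42 ± 0.04 SE, edgeR adjusted p 3.98e-08). Named after their values were seen, the proteasome-bound deubiquitinase USP14 (0.21 ± 0.03 SE, edgeR adjusted p 3.98e-05), the scaffold ECPAS (0.22 ± 0.04 SE, edgeR adjusted p 0.000659) and the unfoldase VCP (0.20 ± 0.03 SE, edgeR adjusted p 7.43e-06) also rose. UCHL5, listed with USP14 and ECPAS among the proteasome-associated factors, fell (-0.13 ± 0.05 SE, edgeR adjusted p 0.0307). Its call held in 12 of 18 alternative fits. Among the genes that fell, UBB, a ubiquitin gene, had a log2 fold change of -0.11 ± 0.03 (SE; edgeR adjusted p 0.0113). UBB lost its call without control replicate 1 or 2 or knockdown replicate 1 or 2 (edgeR adjusted p 0.0514 to 0.0824), and its log2 fold change was -0.06 with the length and GC trend removed (edgeR adjusted p 0.0324). The lower genes of the list then numbered 3 without control replicate 1, and 2 without each of control replicate 2, knockdown replicate 1 and knockdown replicate 2.

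Factors that complete the particle were mostly level. POMP, which matures the core, stood at 164, 166 and 163 CPM in control and 163, 163 and 172 CPM in knockdown (edgeR adjusted p 0.806). SEM1, a small lid subunit, had a log2 fold change of 0.00 ± 0.05 (SE; edgeR adjusted p 0.969). ADRM1 (Rpn13), a ubiquitin receptor of the base, went from 352, 350.1 and 334 to 361, 373 and 390.5 CPM and rose (0.12 ± 0.03 SE, edgeR adjusted p 0.00923). With the length and GC trend removed, POMP (0.11, edgeR adjusted p 0.00367) and SEM1 (0.11, edgeR adjusted p 0.0328) passed as well.

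Among the transcription factors known to act on proteasome genes, NFE2L1 did not pass, at 167, 174 and 169 CPM in control and 175, 182 and 177 CPM in knockdown (log2 fold change 0.07 ± 0.03 SE, edgeR adjusted p 0.129). Its relative NFE2L3 went from 118, 119.9 and 124 to 162, 162 and 157 CPM (0.41 ± 0.04 SE, edgeR adjusted p 3.89e-08). NFE2L2, named after its values were seen, rose too (0.24 ± 0.04 SE, edgeR adjusted p 0.000151). MYBL2, of the same part of the list, fell (-0.10 ± 0.03 SE, edgeR adjusted p 0.0349), a call that held in 8 of 18 alternative fits. NFYA, a subunit of the factor that binds CCAAT, went from 43.9, 47.5 and 48.4 to 37.7, 40.8 and 36.1 CPM (-0.28 ± 0.06 SE, edgeR adjusted p 0.000689). NFYB and NFYC, its partners, did not pass (edgeR adjusted p 0.111 and 0.297). The part of these factors in the proteasome values was not tested.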

How the data were processed

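RNA-seq libraries of 3 control and 3 IRS2 knockdown cultures were compared, made from 1000 ng of total RNA with a NEBNext Ultra II RNA kit per the labels. The authors deposited whole-number counts per gene symbol, and a normalized signal that equals the counts divided by 1 constant per library (0.847 to 1.25), found from the values. The submitters' processing notes name STAR 2.6.1a, Salmon, DESeq2 and hg19 with no roles; whether the whole numbers are rounded Salmon estimates, and how multimapping reads and strands were counted, is not given in the sources used here. Columns matched the sample descriptions, and 0 were left unused.

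Counts as deposited were tested here with edgeR 4.0.16 in R 4.3.3 (TMM factors, filterByExpr, quasi-likelihood F-test, group only). P-values were adjusted by Benjamini and Hochberg over all 13832 tested genes, with a threshold of 0.05. Each standard error is the size of the log2 fold change over the root of its F statistic, and 95% intervals use the fit's degrees of freedom. Alternatives, limma 3.58.1 and DESeq2 1.42.0 (Wald test) among them, numbered 18 fits. The length and GC correction subtracted, in each library, a spline trend (5 degrees of freedom per term) of log2 CPM on length and GC content of the GENCODE 44 canonical transcript (GRCh37), known for 95.8% of tested genes and all 46 members. The scripts were tested on simulated data of 13703 genes, of which 61 changed 1.2-fold, 69 changed 1.5-fold and 68 changed 2-fold. Of these, 42.6%, 73.9% and 86.8% were called. Far fewer genes changed there than were called here, and the genes were of all levels. Changes of 1.2-fold were missed there more often than called, and some of 1.5-fold and 2-fold were missed too. A change of a member may thus have been missed, at 1.2-fold and above as well as below. Sums over members were given no p.

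The members and lists were chosen with earlier results of these data known. All members are accounted for by role. Values in every library are given for PSMB5, PSMB6, PSMB7, PSMB10 and, in each role, the called genes of smallest p, up to 3 in each direction. From the pathway list, the rule named 3 genes in each direction, NFE2L1, POMP, ADRM1, SEM1, PSMB8 and PSMB9; 1 of them is not reported here. Replicates of a member varied by a median of 2.84%, and the 28 members not past the threshold had 95% intervals between -17.0% and 22.8%. No replicate pair agreed within counting error (chi-square per degree of freedom 1.41 to 2.78).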

Additional observations from a re-analysis of the deposited data

How the results depend on the processing

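Of 792 values for the 44 tested proteasome genes under 18 alternative fits, 730 kept their side of the threshold, 692 of them with the same sign and 38, of 14 genes not called, with the other sign (14 of the 38 with the length and GC correction). A call was lost in 42 and gained in 20, and 0 called values changed sign; 10 of the 16 called genes were past the threshold in all 18. The number of genes called higher rose from 10 to 16 with the length and GC correction, and to 16 when that was joined with the replicate block. Genes called lower numbered 3 rather than 6 with DESeq2's Wald test and without control replicate 2. Leaving out 1 library at a time gave 7 to 9 higher and 3 to 6 lower. The median log2 fold change of all members, 0.01, became -0.0199 with library size alone, and 0.04 with the length and GC correction with or without the block (0.0409 and 0.0414); it ran from -0.0194, without knockdown replicate 3, to 0.0331 over the fits that left out 1 library. The core median, -0.03, became 0.0255 with the correction and 0.0247 with the block added, and ran from -0.0514 to -0.00538 when 1 library was left out. The regulatory median, 0.03, became 0.00368 with library size alone (0.0249 to 0.0491 leaving out 1 library). For the other members the correction gave 0.0413 and, with the block, 0.0418 (-0.0175 to 0.0351 leaving out 1 library). Core minus regulatory, -0.07, became -0.0317 with the correction and -0.0315 with the block added (-0.0928 to -0.0468 leaving out 1 library). The ratio of summed levels was 1.31 in control and 1.26 in knockdown per kilobase, since long transcripts then weigh less. Library size alone moved the median of all genes to -0.03. The cause of the other changes was not tested.

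The pathway genes called lower, 5, numbered 3 with DESeq2's Wald test, with limma on the deposited values and with the replicate block, 2 at an adjusted p of 0.01, and 2 to 5 leaving out 1 library; the higher ones numbered 12 to 14 there. IRS2 ranged from -1.42 to -1.35, and the total of called genes from 4319 to 5256. Replicate numbers are shared by the groups, but the labels give no shared culture or day. Deviations of same-numbered libraries correlated at 0.11, 0.14 and -0.12, and not every library matched its own number best, so the block is only an alternative. With it, 8 members were higher and 5 lower; PSMD1, PSMD14 and PSMG3 lost their calls (edgeR adjusted p 0.0628, 0.0781 and 0.0638).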
